A study of Sus scrofa with 4 samples.

Results

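The Hedgehog genes of the pig testis (Sus scrofa) described here are the ligand gene DHH, the receptor genes PTCH1 and SMO, the transcription factor genes GLI1, GLI2 and GLI3, and the decoy receptor gene HHIP. They were chosen by name, as the features whose gene symbol is one of these 7, out of 31908 features listed in each file. Each of the 7 symbols belonged to exactly 1 feature. Testis cells from pigs of 7, 30, 60 and 90 days of age were sequenced as 1 droplet library per age, which makes 4 samples in 4 groups. The labels name no treatment, breed or genotype and do not say how many animals gave a library. Age and library therefore cannot be told apart, and the ages have no replicates against which a difference could be checked.

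Hedgehog proteins are secreted signals. In cells that receive them, the ligand binds PTCH1, which otherwise holds SMO inactive, and SMO then lets the GLI proteins turn on target genes, among them PTCH1, HHIP and GLI1 themselves. In the mouse testis, Sertoli cells make DHH, and loss of the ligand disturbs both the fetal Leydig cells and the peritubular myoid cells around the tubules.

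The 4 libraries held 15896 to 19373 barcodes and 45717373 to 96133720 counts of unique molecular identifiers (UMIs), and 8533 to 13073 cells per library were used. The labels name 86453 captured cells, the files hold 69602 barcodes, and 48923 cells were used. Cells were grouped into classes by marker genes that included none of the 7 genes, so each class is called "-like". All 8 Sertoli markers, and 6 of 7 measured Leydig markers, were higher in their class than in the other cells at every age. All 9 stromal markers were also higher at each age, and 6 or 7 of 7 myoid markers were from 30 days on. The classes were named by these same markers, so these counts are not a separate check of the names. Sertoli-like cells, which line the tubules, numbered 6870, 5933, 2767 and 2235 in order of age. Interstitial stromal-like cells, the fibroblasts between the tubules, numbered 3506, 2873, 1032 and 2044. Peritubular myoid-like cells, the contractile layer around the tubules, numbered 19 at 7 days, which is too few for a level, and then 3201, 879 and 657. Leydig-like cells, which make steroid hormones, numbered 466, 645, 72 and 297, so that their 60-day level is not used either. Germ-like cells other than spermatids numbered 537, 984, 224 and 2863. At 60 days 2849 cells of shallow depth and mixed markers stayed outside all named classes. Of these, 2730 were in 1 cluster whose best marker set was that of neutrophils, with S100A12, S100A8, MPO and LTF among its leading genes. The cluster also held the Sertoli markers at 48.5% of the Sertoli-like level of the same libraries. Between 78 and 115 barcodes were shared by any pair of libraries, at most 0.657% of the smaller library.

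The RefSeq gene table for build Sscrofa11.1, the build named in the submitters' processing notes, places DHH on chromosome 5 at 15114524 to 15119610 and GLI1 on the same chromosome at 22736325 to 22747421. PTCH1 lies on chromosome 10 at 26627165 to 26703225, and GLI2 on chromosome 15 at 30312528 to 30580272. SMO and GLI3 are both on chromosome 18, at 19450730 to 19478796 and at 52403463 to 52697906. HHIP lies on chromosome 8 at 83583735 to 83678368. GLI1 overlaps ARHGAP9, and PTCH1 and HHIP each overlap 1 unnamed locus in that table. The strand setting of the authors' counting is not given in the sources used here, so reads of these overlapping pairs could have been shared. Each value below is a whole gene's UMI count.

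Levels are given as CPM, the UMIs of a gene scaled to 1000000 UMIs of the class in that library. The 95% ranges in parentheses are exact and take in the error of counting alone. Free RNA in droplet data can put UMIs of a gene into cells that do not express it, so levels are set beside macrophage, monocyte, T and NK-like cells pooled, immune cells that should lack most Hedgehog genes. This pool held 443 to 773 cells per library. In these cells DHH ranged from 1.29 to 3.46 CPM over the 4 libraries. PTCH1 ranged from 5.62 to 19.97 CPM there and HHIP from 5.40 to 10.6 CPM. The other genes stayed at or under 3.26 CPM, with GLI2 at 0 UMIs at both 60 and 90 days.

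**Figure D1:**
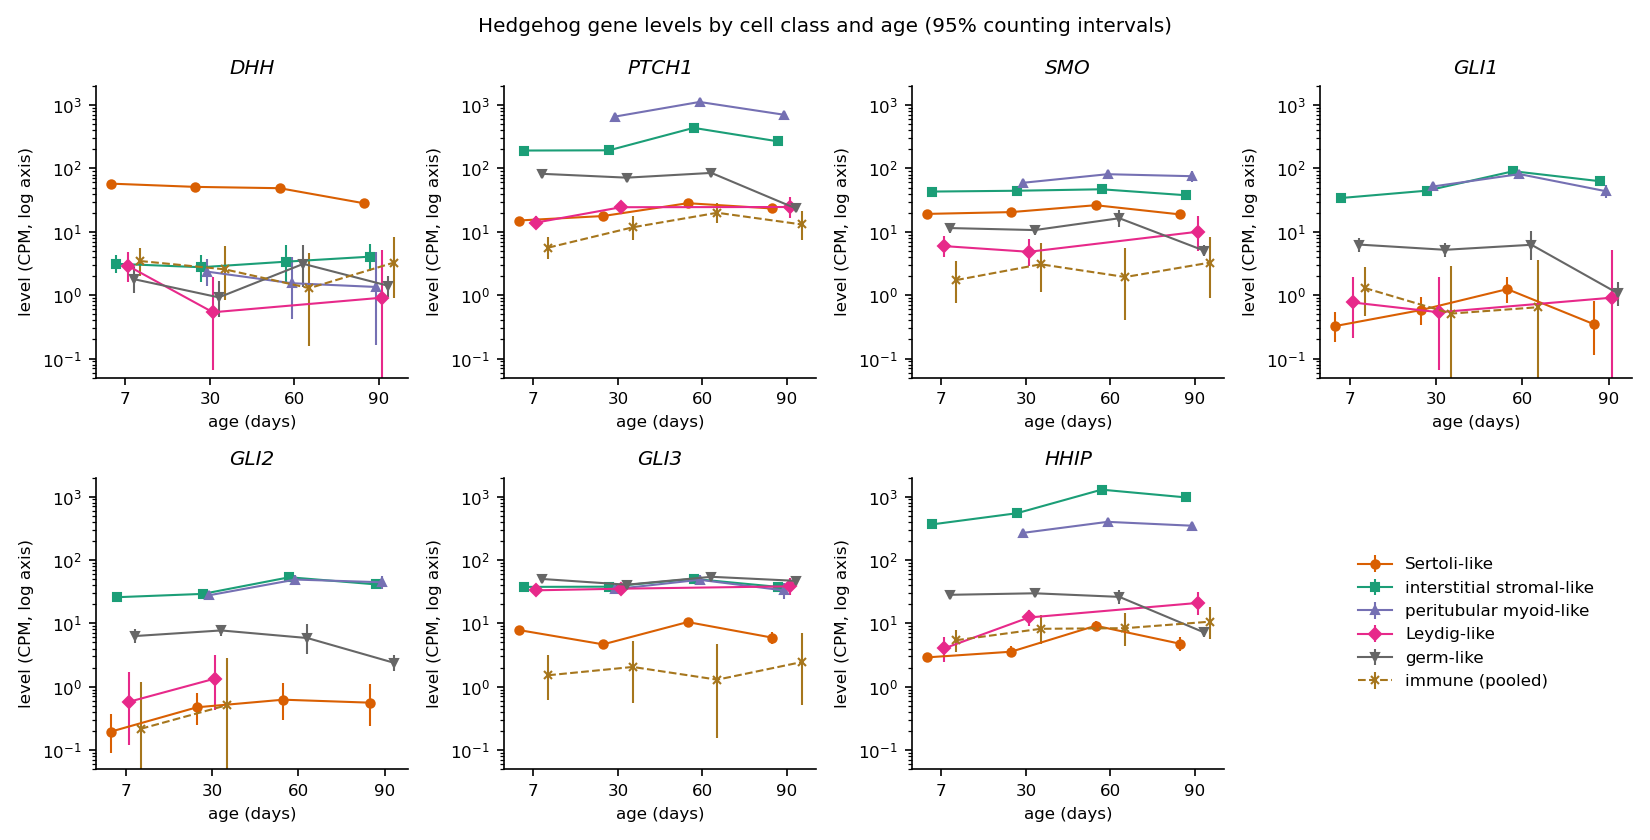
Level of each Hedgehog gene (CPM, log axis) by age in 5 cell classes and in pooled immune cells, with exact 95% counting intervals; classes under 100 cells and levels of 0 are not drawn. DHH stands out in Sertoli-like cells (57.6 CPM at 7 days, 28.2 at 90 days), PTCH1 in myoid-like cells and HHIP in stromal-like cells (1285.7 CPM at 60 days), whereas GLI3 lies close together in 4 classes.

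DHH, the ligand, was a Sertoli-like transcript at every age. From the youngest to the oldest library, Sertoli-like cells had 57.6 CPM (55.4 to 59.8), 51.2 (48.5 to 53.9), 48.8 (45.4 to 52.3) and 28.2 (25.5 to 31.04). The first 3 libraries lay close together and the 90-day library lay apart below them. No other named class of at least 100 cells exceeded 7.07 CPM, which was the endothelial-like level at 7 days. In Sertoli-like cells the level was 16.6 times the immune level at 7 days (10.2 to 29.2) and 8.63 times at 90 days (3.34 to 31.8). After thinning each cell to 2000 UMIs and leaving out shallower cells, the Sertoli-like cells with a DHH UMI made up 10.5%, 9.61%, 9.37% and 5.41% of the class, youngest library first. Without thinning the shares were 29.4%, 20.2%, 23.2% and 14.8%, at median depths between 3724 and 5609 UMIs. The thinned immune share was 0.726% at 7 days and 0.680% at 90 days, at median depths of 5738 and 1327 UMIs before thinning.

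The log2 ratio of DHH in Sertoli-like cells for 90 against 7 days was −1.03 (−1.19 to −0.88), a level 2.04 times lower. Most of this difference lay in the last step. Neighbouring ages gave −0.17 (−0.26 to −0.08) for 30 against 7 days, −0.07 (−0.20 to 0.06) for 60 against 30 days and −0.79 (−0.97 to −0.62) for 90 against 60 days. Scaling by trimmed mean of M-values (TMM) factors moved every ratio of 90 against 7 days in this class by −0.49 and put DHH at −1.53. As the mean over cells the log2 ratio was −1.40. Most Sertoli-like cells of each age lay in a main cluster of that age. A dividing-cell cluster held 1380 cells of 7 days, 253 of 30 days and 84 of 60 days, and a cluster led by XIRP1, F3 and CCN1 held 1168 of the 5933 cells of 30 days. At 7 days DHH was 52.4 CPM in the dividing cluster and 59.7 CPM in the main 7-day cluster, a log2 ratio of −0.19 (−0.32 to −0.06).

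Of all DHH UMIs in the cells used, Sertoli-like cells held 95.6% (94.8 to 96.3%) at 7 days, 94.2% at 30 days, 82.7% at 60 days and 81.2% (77.5 to 84.6%) at 90 days. The lower shares of the later libraries had different remainders. At 60 days 14.4% of the DHH UMIs were in the mixed, unnamed cells, and Sertoli-like cells held 96.5% of those in named cells. At 90 days 5.85% lay in germ-like, 3.83% in stromal-like and 3.23% in spermatid-like cells, all at levels at or under 4.34 CPM. In stromal-like cells DHH stood at 5.43%, 5.39%, 6.92% and 14.4% of the Sertoli-like level in order of age. Of 3 other Sertoli transcripts, CLU stood there at 7.01%, 5.87%, 6.14% and 10.7%, and CLDN11 at 7.47%, 5.79%, 5.39% and 13.4%. AMH, the anti-Müllerian hormone gene, stood higher, at 7.77%, 9.04%, 10.7% and 41.8%. These shares also move with the Sertoli-like level, which for AMH was 2516.5 CPM at 7 days and 164.9 CPM at 90 days. In CPM, stromal-like AMH was lower at 90 days, at 68.9 against 195.4 at 7 days. Stromal-like DHH was 3.13 CPM at 7 days and 4.05 CPM at 90 days. All 4 genes had their highest share in stromal-like cells in the 90-day library, but not in every class: in germ-like cells DHH stood at 6.40% at 60 days and 5.01% at 90 days. What part free Sertoli RNA has in the low DHH counts of other classes was not tested. The other Hedgehog ligand genes, SHH and IHH, had 13 and 48 UMIs in all barcodes of the 4 libraries, against 6539 for DHH.

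**Figure D2:**
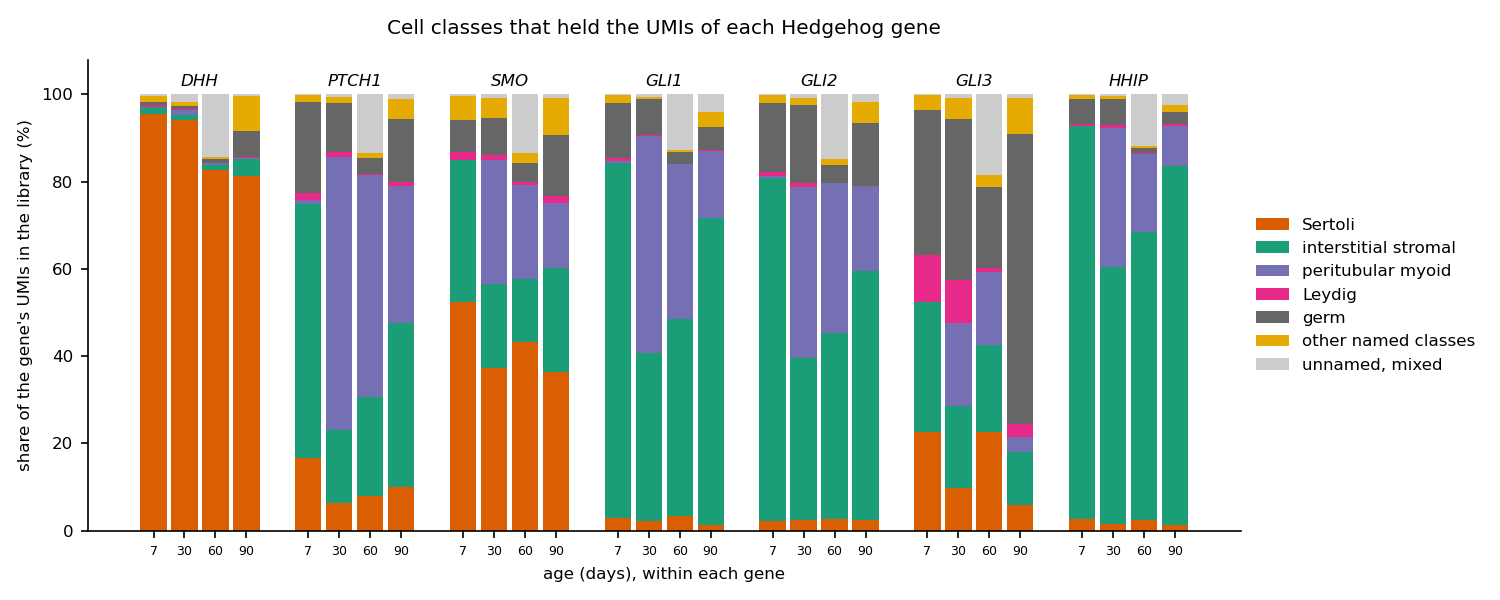
Share of each gene's UMIs (percent of those in the cells used) held by each cell class at each age, as stacked bars. Sertoli-like cells held 95.6% of DHH at 7 days and 81.2% at 90 days, stromal and myoid-like cells held most GLI1, GLI2 and HHIP, and germ-like cells held 66.5% of GLI3 at 90 days.

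PTCH1, the receptor of the ligand, was most abundant in peritubular myoid-like cells. From 30 days on its levels there were 657.8 CPM (639.3 to 676.8), 1120.1 (1079.7 to 1161.6) and 703.5 (661.4 to 747.4). Stromal-like cells came next at 191.6, 193.2, 436.8 and 267.1 CPM in order of age. The intervals of the 2 classes did not overlap at 30, 60 or 90 days, where the log2 ratio of myoid over stromal was 1.77 (1.68 to 1.86), 1.36 (1.26 to 1.45) and 1.40 (1.28 to 1.52). Germ-like cells followed at 82.2, 71.5 and 84.98 CPM up to 60 days, and stood at 23.3 CPM at 90 days. Sertoli-like cells ranged from 15.1 to 28.3 CPM, which was 1.42 to 2.68 times the immune level of the same library, with intervals that excluded the immune level at 7 and 90 days but not at 30 and 60 days. PTCH1 is also among the leading genes of the cluster that holds the 30 and 60-day myoid-like cells, although it was left out of the genes used for clustering.

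After thinning, a PTCH1 UMI was found in 67.4%, 80.7% and 70.8% of myoid-like cells at 30, 60 and 90 days. The thinned shares of stromal-like cells were 25.2%, 29.0%, 41.5% and 35.8% in order of age. Immune cells had thinned shares of 1.45%, 2.71%, 3.96% and 1.36%. Unthinned, the myoid-like shares were 70.9%, 85.8% and 68.3% and the stromal-like ones 35.9%, 25.8%, 47.5% and 35.2%, so the order of these classes was the same with and without thinning. The 19 myoid-like cells at 7 days held 35 PTCH1 UMIs.

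HHIP, a membrane protein that binds Hedgehog ligands and keeps them from PTCH1, had the opposite order. Stromal-like cells had 364.4 CPM (354.0 to 375.0) at 7 days, 546.5 at 30 days, 1285.7 at 60 days and 969.5 (941.6 to 998.1) at 90 days. Myoid-like cells had 267.3, 399.1 and 346.7 CPM from 30 days on. The log2 ratio of stromal over myoid for HHIP was 1.03 (0.95 to 1.11), 1.69 (1.59 to 1.79) and 1.48 (1.35 to 1.62) in the same libraries. So in each of these 3 libraries myoid-like cells were higher in PTCH1 and stromal-like cells higher in HHIP. The thinned share of stromal-like cells with an HHIP UMI was 45.6%, 55.0%, 75.3% and 61.2% in order of age, against 58.5%, 53.8%, 79.9% and 63.0% unthinned. Immune cells had between 1.36% and 1.60% after thinning. HHIP in Sertoli-like cells, from 2.89 to 9.15 CPM, was not above the immune level beyond counting error in any library.

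GLI1, a transcription factor that is itself a Hedgehog target, was highest in stromal and myoid-like cells, with lower levels in germ-like cells. In stromal-like cells it was 34.1 CPM (30.96 to 37.4), 44.6, 90.4 and 62.9 (55.9 to 70.5) in order of age. In myoid-like cells it was 51.9 (46.8 to 57.4), 81.4 and 43.8 (33.8 to 55.8) from 30 days on. The 2 classes did not differ beyond counting error at 30 and 60 days, and at 90 days stromal-like cells were higher by a log2 ratio of 0.52 (0.13 to 0.93). Sertoli-like cells had at most 1.25 CPM and Leydig-like cells at most 0.912 CPM of GLI1 in the libraries with enough cells.

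GLI2, the main activator of the pathway in the mouse, followed GLI1 across the classes. Stromal-like cells had 25.8, 29.1, 53.3 and 41.1 CPM in order of age. Myoid-like cells had 27.7, 49.0 and 44.4 CPM from 30 days on. Stromal and myoid-like cells did not differ beyond counting error in GLI2 at 30, 60 or 90 days. Germ-like cells were at 6.29, 7.71, 5.85 and 2.38 CPM, and Sertoli-like cells had at most 0.623 CPM.

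Pairs of the target genes were also looked at within single cells. Among 827 stromal-like cells thinned to 2000 UMIs at 60 days, 126 had a GLI1 UMI, and of these 62.7% (53.6 to 71.2%) also had PTCH1, against 37.7% (34.1 to 41.4%) of the cells without GLI1. The same pair of shares was 33.9% and 24.7% at 7 days, 40.7% and 27.8% at 30 days and 45.8% and 34.6% at 90 days. At 90 days their intervals, 37.4 to 54.3% and 31.7 to 37.5%, just overlapped. For HHIP in stromal-like cells with and without PTCH1 the shares were 46.3% and 45.3% at 7 days, 65.4% and 50.8% at 30 days, 81.6% and 70.9% at 60 days and 75.3% and 53.4% at 90 days. The shares for this pair differed by less than counting error at 7 days. At 7 and 90 days HHIP was found in 56.1% and 74.6% of stromal-like cells with GLI1, against 44.9% and 59.5% without. At 30 and 60 days these shares were 60.0% and 81.7%, against 54.5% and 74.2%, with overlapping intervals. In myoid-like cells at 60 days, 91.0% of the cells with GLI1 had PTCH1, against 78.9% of those without. At 30 days the myoid-like shares were 74.0% (66.9 to 80.3%) and 66.8% (64.5 to 68.9%), with overlapping intervals. These shares are over cells of 1 library each, and cells are not replicates.

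SMO, which carries the signal across the membrane, was spread more evenly. Myoid-like cells were highest at 59.4, 81.1 and 75.4 CPM from 30 days on. Stromal-like cells had 43.2, 44.4, 46.9 and 37.7 CPM in order of age. Sertoli-like cells had 19.2, 20.5, 26.3 and 18.8 CPM, between 5.76 and 13.6 times the immune level, and held 52.3% of all SMO UMIs at 7 days and 36.3% at 90 days. SMO was therefore measured above immune cells both where DHH was made and where PTCH1 and GLI1 were high.

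GLI3, known mainly as the repressor of the pathway when no ligand is present, differed from the other GLI genes in its classes. At 7 days it was 50.02 CPM (45.9 to 54.5) in germ-like, 37.5 (34.2 to 41.0) in stromal-like and 33.2 (28.4 to 38.5) in Leydig-like cells. At 90 days the same classes had 46.8 CPM (43.9 to 49.8), 37.5 (32.2 to 43.5) and 38.3 (27.6 to 51.8), and myoid-like cells had 33.0 (24.4 to 43.6). At 90 days the intervals of germ and stromal-like cells did not overlap, whereas Leydig-like cells did not differ beyond counting error from germ or stromal-like cells, nor stromal from myoid-like cells. In Leydig-like cells GLI3 was 21.9 times the immune level at 7 days (10.4 to 55.3) and 15.7 times at 90 days (5.002 to 78.9). Leydig-like cells thus held GLI3 at the stromal level while their GLI1 was not above the immune level.

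Comparisons between ages were read as a ratio of at least 1.5 times whose interval excludes no change, among genes with at least 10 UMIs over both libraries. In stromal-like cells the step from 30 to 60 days was higher for 4 of 7 Hedgehog genes and lower for 0, against 17.8% of all 14292 genes measured called higher and 6.69% called lower. PTCH1 had a log2 ratio of 1.18 (1.06 to 1.29), GLI1 1.02 (0.77 to 1.26), GLI2 0.87 (0.56 to 1.18) and HHIP 1.23 (1.17 to 1.30). SMO and GLI3 were at 0.08 (−0.23 to 0.37) and 0.41 (0.11 to 0.71). TMM factors shifted every ratio of this step by −0.24 and left all 4 above 1.5 times, with GLI2 the lowest at 0.63. The 60-day library was also the one with most removed doublets, 28.8% of its filtered cells against 5.59% to 10.3% in the others. The removed barcodes were shallower than the kept ones at 60 days, with median depths of 1662 and 2745 UMIs, and deeper in the 3 other libraries, for example 9251 and 5100 UMIs at 7 days. PTCH1 in immune cells was 11.8 CPM at 30 days and 19.97 CPM at 60 days, and the part of doublets or free RNA in this step was not tested.

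In myoid-like cells the same step was higher for 3 of 7 genes and lower for 0, with a background of 16.5% higher and 4.49% lower among 14191 genes. PTCH1 had 0.77 (0.70 to 0.83), GLI1 0.65 (0.40 to 0.90) and GLI2 0.82 (0.49 to 1.15), and HHIP was just under the fold at 0.58 (0.47 to 0.69). With TMM factors PTCH1 was 0.53 and GLI1 0.41, both under 1.5 times, and GLI2 alone stayed past it at 0.59. The step from 60 to 90 days ran the other way for PTCH1 in both classes. The myoid-like cells of 30 and 60 days formed 1 cluster and 647 of the 657 at 90 days another, so their ratios with the 90-day library are also ratios between clusters. From 60 to 90 days the log2 ratio of PTCH1 was −0.71 (−0.82 to −0.60) in stromal-like and −0.67 (−0.77 to −0.57) in myoid-like cells. GLI1 in myoid-like cells was at −0.90 (−1.32 to −0.49). Over the whole span from 30 to 90 days, which leaves out the 60-day library, 1 of 7 genes was higher and 0 were lower in myoid-like cells, against 33.2% and 7.5% of 14674 genes. This was GLI2 at 0.68 (0.26 to 1.09), or 0.18 with TMM factors, while PTCH1 was at 0.10 with an interval that included no change. With TMM factors no gene was higher and GLI1 was lower, at −0.75.

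**Figure D3:**
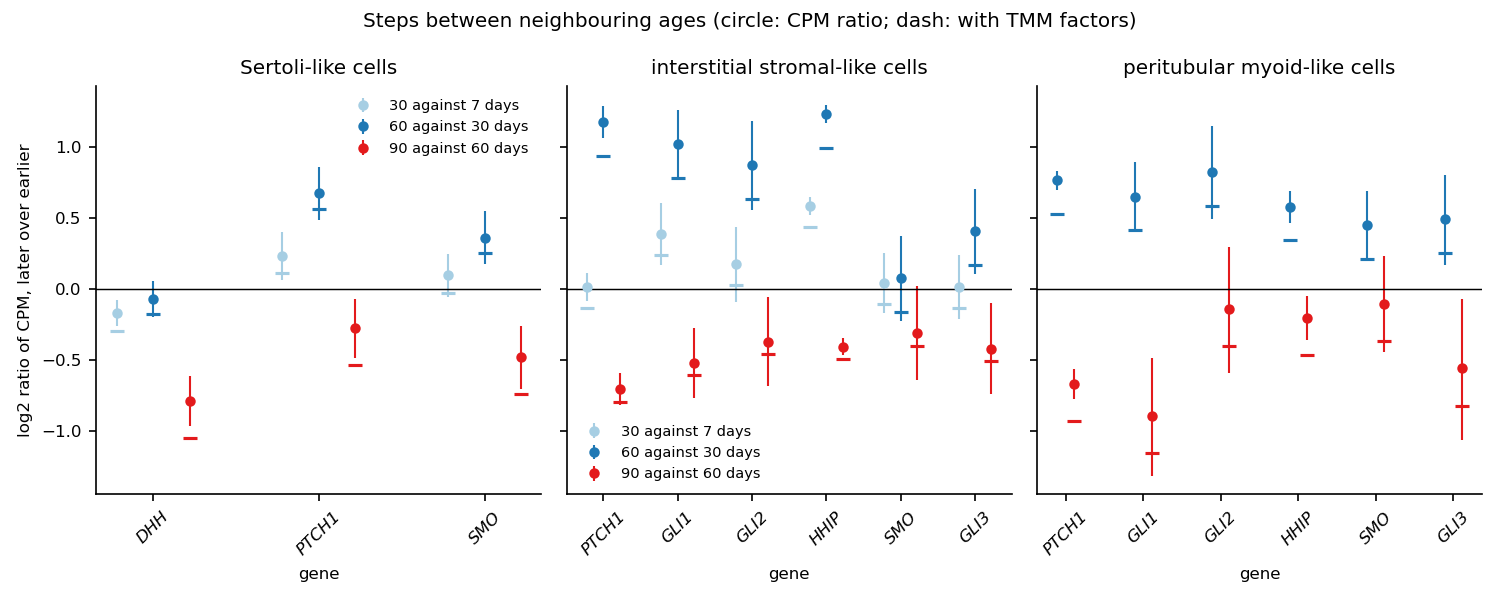
Log2 ratio of CPM between neighbouring ages (circles, with exact 95% counting intervals; dashes, with TMM factors) in 3 cell classes. From 30 to 60 days PTCH1, GLI1, GLI2 and HHIP were higher in stromal-like cells, with ratios of 0.87 to 1.23, whereas DHH in Sertoli-like cells was at −0.07, and from 60 to 90 days PTCH1 was lower in both stromal and myoid-like cells.

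Across the full range from 7 to 90 days, stromal-like cells were higher in 3 of 7 genes and lower in 0, which is near the background of 40.7% higher and 9.37% lower among 17005 genes. HHIP had a log2 ratio of 1.41 (1.35 to 1.47), a level 2.66 times higher. GLI1 had 0.88 (0.67 to 1.10) and GLI2 0.67 (0.41 to 0.93). PTCH1 had 0.48 (0.38 to 0.58), which is under 1.5 times, and GLI3 was at 0.00 (−0.26 to 0.25). TMM factors moved every ratio by −0.48, so that HHIP stood at 0.94, GLI1 at 0.41, GLI2 at 0.20 and PTCH1 at 0.00, and HHIP alone was then past 1.5 times upwards. SMO was then past it downwards, at −0.67. The clusters behind the class differed, with mostly separate stromal clusters for each age. A larger share of the thinned stromal-like cells carried ACTA2, a myoid marker, at 7 days (1487 with, 1617 without) than at 90 days (257 and 976). When each cell was classed by its own markers, 486 cells were myoid-like at 7 days, against 19 here. The part of such cells in these ratios was not tested.

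In Sertoli-like cells, 2 of 7 genes were higher at 90 than at 7 days and 1 was lower, against 41.8% higher and 16.1% lower among 19732 genes. The lower one was DHH. PTCH1 and HHIP were higher at 0.63 (0.44 to 0.82) and 0.72 (0.27 to 1.15), or 0.14 and 0.22 with TMM factors, both under 1.5 times. With those factors GLI3 was also lower, at −0.89. Their level in immune cells also differed between these libraries, from 5.62 to 13.1 CPM for PTCH1 and from 5.40 to 10.6 CPM for HHIP, and its part in the ratios was not tested.

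Stromal-like cells that carried ACTA2, the smooth muscle actin gene and first of the myoid markers, had more PTCH1. At 7 days, when few cells were classed as myoid, 1487 thinned stromal-like cells with an ACTA2 UMI had 207.1 CPM of PTCH1 and the 1617 without had 147.5 CPM, a log2 ratio of 0.49 (0.32 to 0.67). In the 3 older libraries the ratio was 1.01 (0.79 to 1.24), 0.64 (0.40 to 0.87) and 0.45 (0.21 to 0.70). HHIP ran the other way in 3 of 4 libraries, at −0.27 (−0.38 to −0.15), −0.26 (−0.42 to −0.10) and −0.53 (−0.70 to −0.37) at 7, 30 and 90 days, and was −0.02 (−0.17 to 0.13) at 60 days. GLI1 did not differ beyond counting error between cells with and without ACTA2 at any age. Inside the stromal-like class the split by ACTA2 at 7, 30 and 90 days thus had the PTCH1 and HHIP order that separated the myoid from the stromal class. In myoid-like cells with ACTA2, PTCH1 was also higher, at 0.35 (0.17 to 0.54) at 30 days and 0.31 (0.13 to 0.49) at 60 days. HHIP there did not run the other way, at 0.20 (−0.08 to 0.49) and 0.25 (−0.06 to 0.56). Within the stromal-like class, a cluster was led by dividing-cell genes such as TOP2A and ASPM, with no stromal marker among its leading genes. Whether it also held dividing myoid-like cells, a class with 657.8 CPM of PTCH1 at 30 days, was not tested. The dividing cluster had 390.3 CPM of PTCH1 at 30 days against 158.4 in the main stromal cluster of that age. At 7 days it had 201.4 against 191.5 CPM, and the interval of the ratio included no difference. Its GLI1 at 7 days was 59.4 against 31.5 CPM, a log2 ratio of 0.91 (0.53 to 1.28), but at 30 days the ratio of 0.36 (−0.12 to 0.81) included no difference. HHIP was lower in the dividing cluster at both ages, at −0.32 (−0.48 to −0.17) and −0.93 (−1.12 to −0.75).

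Leydig-like cells, known receivers of DHH in the fetal mouse testis, had low levels of the target genes. In the 7, 30 and 90-day libraries PTCH1 had 13.99 CPM (10.97 to 17.6), 24.4 (19.7 to 30.0) and 24.6 (16.2 to 35.8), which was 2.49, 2.08 and 1.89 times the immune level in the same libraries. The interval of the last ratio (0.981 to 3.75) included the immune level. HHIP was 4.03 CPM (2.49 to 6.15), 12.3 (9.04 to 16.5) and 21.0 (13.3 to 31.5). Their HHIP was 0.745 (0.397 to 1.39), 1.51 (0.838 to 2.85) and 1.98 (0.961 to 4.25) times the immune level in those libraries. None of these HHIP intervals excluded the immune level, so HHIP in this class could not be told apart from background. Between 7 and 90 days 2 of 5 measured genes were higher and 0 lower, against a background of 35.8% and 9.46% of 12483 genes. They were PTCH1 at a log2 ratio of 0.82 (0.12 to 1.47), or 0.22 with TMM factors, and HHIP at 2.38 (1.46 to 3.31), or 1.79. The PTCH1 ratio was 0.04 when each library was clustered on its own, and the HHIP ratio rested on 21 and 23 UMIs. In the pooled immune cells the PTCH1 level went from 5.62 to 13.1 CPM and the HHIP level from 5.40 to 10.6 CPM between the same libraries. These immune levels rested on 26 and 16 UMIs of PTCH1 and on 25 and 13 UMIs of HHIP. Fewer than 5 GLI1 UMIs were found in Leydig-like cells of any library.

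Germ-like cells carried PTCH1 above the immune level at each age, by 14.6 times at 7 days (9.92 to 22.5) and by 1.79 times at 90 days (1.09 to 3.15). At 7 days 20.8% of all PTCH1 UMIs and 33.1% of all GLI3 UMIs were in germ-like cells. The germ-like cells of 7, 30 and 60 days fell into 2 clusters. The first was led by MORC1, PIWIL4 and DND1, genes that act in transposon silencing and early germ cells, and is cluster 18 in the plot of germ clusters. The second, cluster 19, was led by PLD6, UCHL1 and ELAVL2 and also held GFRA2. PTCH1 was higher in the second, at 97.5, 85.9 and 114.8 CPM in order of age, than in the first, at 59.6, 47.4 and 61.9 CPM. HHIP was the reverse, at 16.8, 15.6 and 17.9 CPM in the second and 44.9, 54.6 and 42.7 CPM in the first. In each of the 3 libraries the intervals of both ratios excluded no difference, with log2 ratios of 0.71, 0.86 and 0.89 for PTCH1 and −1.42, −1.80 and −1.25 for HHIP.

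**Figure D4:**
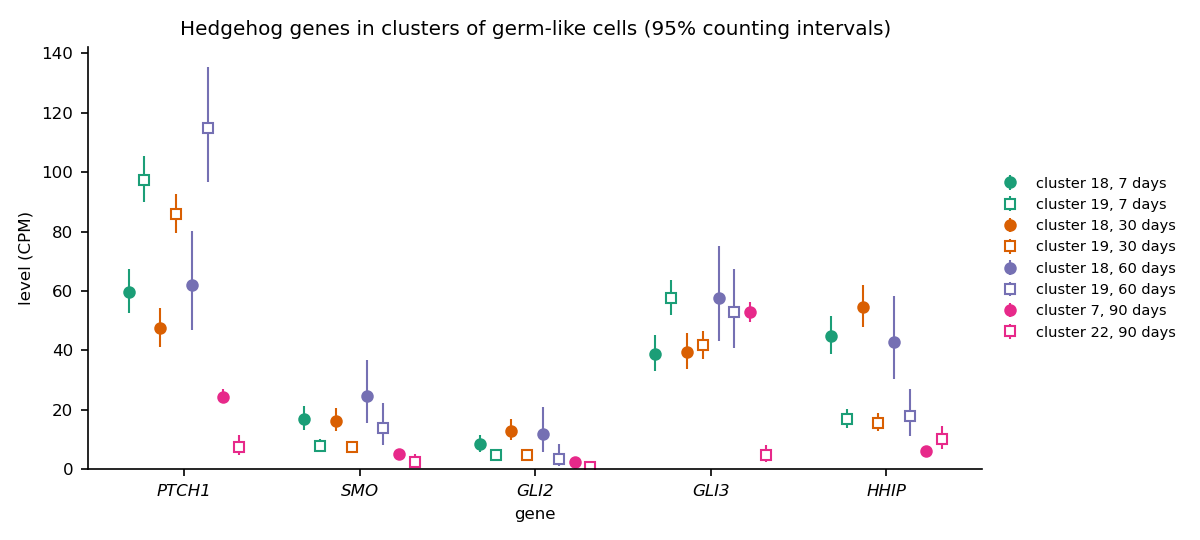
Level of 5 Hedgehog genes (CPM, with exact 95% counting intervals) in the clusters of germ-like cells with at least 50 cells, by cluster and age. Cluster 19 lay above cluster 18 in PTCH1 and below it in HHIP at 7, 30 and 60 days, and at 90 days cluster 7 lay far above cluster 22 in GLI3 (52.8 against 4.66 CPM).

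At 90 days the germ-like cells formed other clusters. Cluster 7, which shared the leading genes UCHL1, TKTL1, ELAVL2 and GFRA2 with the younger cluster 19, held 2212 cells, and cluster 22, led by meiotic and sperm genes such as ADAM2, LDHC and IHO1, held 612. GLI3 was 52.8 CPM in cluster 7 and 4.66 CPM in cluster 22, a log2 ratio of 3.502 (2.72 to 4.42). PTCH1 differed in the same direction, with 24.4 against 7.53 CPM and a log2 ratio of 1.699 (1.07 to 2.41). Over the whole class, 5 of 7 genes were lower at 90 than at 7 days and 0 were higher, against 37.5% lower and 21.9% higher among 22306 genes. The log2 ratio was −1.82 (−1.98 to −1.66) for PTCH1, −2.56 (−3.32 to −1.84) for GLI1 and −1.97 (−2.26 to −1.68) for HHIP. It was −1.18 for SMO and −1.40 for GLI2, but −0.10 (−0.25 to 0.06) for GLI3. TMM factors moved these ratios by 0.32 towards higher values and left the same 5 genes past 1.5 times. Since the germ clusters differed between the ages, these ratios are also ratios between clusters.

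Of 38 other Hedgehog pathway genes, chosen by their known roles, 35 had a feature. In stromal-like cells 18 of 28 measured genes were higher at 90 than at 7 days and 0 lower, beside 40.7% and 9.37% of all genes. TMM factors made this 11 higher and 2 lower. The list had a median log2 ratio of 0.81 against 0.47 over all genes. All 5 receptors and co-receptors with a feature were among the higher ones. GPC3, a glypican that binds Hedgehog proteins, went from 10.01 to 72.5 CPM between these ages, a log2 ratio of 2.86 (2.56 to 3.16). CCND1, a cyclin counted here among the target genes, had 2.32 (2.07 to 2.58). From 30 to 60 days 6 of 26 were higher and 0 lower in stromal-like cells, or 2 and 0 with TMM factors, near the 17.8% and 6.69% of all genes. They included CDON, a co-receptor, at 1.39 (1.07 to 1.703), and KIF7, a ciliary kinesin that controls GLI proteins, at 0.99 (0.61 to 1.37). SFRP1, listed as a target gene, was at 0.78 (0.72 to 0.84), from 766 to 1318 CPM.

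In myoid-like cells 13 of 28 pathway genes were higher at 90 than at 30 days, between different clusters, and 0 lower, beside 33.2% and 7.5% of all genes. TMM scaling made this 8 and 0. SFRP1 was higher there at 1.55 (1.31 to 1.79). In Leydig-like cells 13 of 21 were higher at 90 than at 7 days and 1 lower, beside 35.8% and 9.46% of all genes, or 6 and 2 under TMM scaling. CDON had a log2 ratio of 2.31 (1.71 to 2.91) and CCND2 of −0.77 (−1.19 to −0.36) there. In Sertoli-like cells 11 of 28 were higher and 4 lower, near the 41.8% and 16.1% of all genes. After TMM scaling 8 were higher and 7 lower. The list had a median of 0.50 against 0.47 over all genes. SCUBE3, a secreted protein of a family that helps release Hedgehog ligands, stood at 1.21 CPM in the youngest and 16.1 CPM in the oldest library, a log2 ratio of 3.74 (3.31 to 4.19). PRKACB, a catalytic subunit of protein kinase A, which phosphorylates GLI proteins, had 2.31 (2.25 to 2.37). CCND2 had −7.21 (−7.50 to −6.93), and SUFU, which binds and restrains GLI proteins, −1.81 (−2.72 to −1.02) with at most 3.43 CPM.

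GPR161, a ciliary receptor that restrains Hedgehog signalling, had the largest upward ratio of the list in Sertoli, stromal and Leydig-like cells (90 against 7 days) and in myoid-like cells (90 against 30 days). In Sertoli-like cells it went from 0.561 to 50.9 CPM between 7 and 90 days, and from 1.02 to 104.5 CPM in stromal-like cells. At 90 days it was also 154.1 CPM in T or NK-like and 84.5 CPM in macrophage or monocyte-like cells, which had 0 UMIs of it at 7 days. The 90-day value was therefore high in each class looked at, immune cells included.

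Across the 36 sums of named classes and libraries with at least 100 cells, the genes whose log2(CPM + 1) profile was most like that of each Hedgehog gene were taken by Pearson correlation over 12683 genes. The sums share libraries and class definitions, so the correlations are descriptions. HSD17B3, an enzyme of testosterone synthesis, was most like DHH at r = 0.905, followed by DLL3 at 0.870 and DTNA at 0.850. PTCH1 was followed by SLC24A2 at 0.943 and ADAMTSL2 at 0.934. HHIP was followed by PTN, a secreted growth factor, at 0.949 and DCN, a matrix proteoglycan, at 0.948. GLI1 and GLI2 were in each other's top 3 at 0.927, and GLI1 was also followed by HAPLN1 at 0.930 and SLC24A2 at 0.928. SMO was followed by ARHGAP28, PKDCC and FGFR1 at 0.927 to 0.887, and GLI3 by EIF4EBP2, CAPN5 and ZNF507 at 0.862 to 0.849. Among the members themselves r was 0.88 between PTCH1 and GLI1, 0.89 between PTCH1 and HHIP and −0.17 between DHH and PTCH1. HSD17B3 and DCN also served as markers of the Leydig and stromal classes. In these data HSD17B3 was among the leading genes of the main Sertoli-like cluster of each age, and not of the Leydig-like cluster.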

How the data were processed

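Single-cell libraries of pig testis, 1 per age, were made with 10x 3′ v3 chemistry, per the labels' protocols. The deposited values are raw UMI counts per gene and barcode, made with Cell Ranger 5.0.1, per the file headers; bcl2fastq, Scanpy 1.7.1 and build Sscrofa11.1 are named in the submitters' processing notes. The strand setting is not given in the sources used here. The members and gene lists were chosen with earlier results of these data known.

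Barcodes with at least 1000 UMIs, 500 genes and at most 15% mitochondrial UMIs were kept, and doublets were removed with Scrublet at an expected rate of 0.8% per 1000 barcodes. The 4 libraries were clustered together with no integration (Scanpy 1.11.5, leidenalg 0.10.2, 2000 variable genes without the Hedgehog genes, 30 components, 15 neighbours, resolution 1), giving 32 clusters. Clusters were named from 19 marker sets by fold over the other cells of the same library. The names are rebuilt here and may differ from those of the study.

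UMIs were summed per class and library and divided by the class total to give CPM, with exact Poisson intervals for levels, exact binomial (Clopper-Pearson) intervals for shares and exact conditional binomial intervals for ratios (SciPy 1.17.1). Ratios were also computed with TMM factors (edgeR 4.0.16). With 1 library per age no p-value was computed. Shares of cells were also computed after thinning to 2000 UMIs. Pathway genes with values in the text were taken from those with the 4 largest called ratios in each direction per class, in the order of the end of the interval closest to a ratio of 1. The alternatives changed doublet removal, cell filters, resolution, joint clustering, class gating, scaling, depth per cell and free RNA. The ratio intervals were tested on simulated Poisson counts alone. These hold no variation between cells, animals or libraries, so the test could not measure those errors. Some results that these rules would name are not reported here.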

Additional observations from a re-analysis of the deposited data

Results flagged for a closer look

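The ratio of 90 against 7 days had opposite signs in germ-like cells and in other classes for 4 genes, and the difference between classes was not tested. PTCH1 had a log2 ratio of −1.82 in germ-like cells, 0.82 in Leydig-like cells and 0.63 in Sertoli-like cells. GLI1 had −2.56 in germ-like and 0.88 in stromal-like cells. GLI2 had −1.40 in germ-like and 0.67 in stromal-like cells. HHIP had −1.97 in germ-like cells, 2.38 in Leydig-like, 0.72 in Sertoli-like and 1.41 in stromal-like cells. HHIP was not above the immune level beyond counting error in Leydig-like or Sertoli-like cells. With TMM factors the upward ratios of PTCH1, GLI1 and GLI2 given here all fell under 1.5 times. The germ-like cells of the 2 ages came from different clusters.

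The 2849 unnamed, mixed cells of the 60-day library, which enter no class comparison and mostly form a cluster led by neutrophil genes, also held UMIs of all 7 genes. They held 136 UMIs of DHH, 771 of PTCH1, 131 of SMO, 76 of GLI1, 55 of GLI2, 138 of GLI3 and 682 of HHIP. Their levels of DHH and PTCH1 were 24.9 and 141.0 CPM, between those of the immune and of the highest class in that library. DHH stood there at 51.0% of the Sertoli-like level, beside 44.1% for CLU, 46.4% for AMH and 54.4% for SOX9. Sertoli markers also entered the rule that left most of these cells unnamed. What part Sertoli RNA has in their DHH counts was not tested.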

How the results depend on the processing

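Of 67 Hedgehog gene ratios, 28 counted as higher or lower, and none of them turned direction under the 12 alternatives, although the subtraction of free RNA gave a value for 23 of the 28 alone. TMM factors left 20 of them past 1.5 times, no doublet removal, the per-cell marker gate and means over cells 25 each, and every other alternative that gave all 28 values 27 or 28. The DHH ratio of 90 against 7 days in Sertoli-like cells was −1.40 as a mean over cells and −1.53 with TMM factors. In stromal-like cells the PTCH1 ratio was 0.58 as a mean over cells, 0.71 (past 1.5 times) after thinning and 0.0040 with TMM factors. GLI1 there was 0.41 with TMM factors, and HHIP was 1.51 with a per-cell marker gate, 1.26 after thinning and 0.94 with TMM factors. The PTCH1 ratio in Leydig-like cells was 0.041 when each library was clustered on its own, and up to 1.07 under the others. HHIP there had too few UMIs for a ratio once free RNA was subtracted. The Sertoli-like share of DHH UMIs at 7 days was 87.8% without doublet removal, 73.0% with only the expected share of doublets removed, 80.9% at resolution 0.5, 83.4% at resolution 2, 91.3% with the per-cell gate and 99.2% after subtracting 10% free RNA. At 90 days it was 76.7% without doublet removal, 77.0% at resolution 2, 67.9% with the gate, 71.8% after thinning and 87.0% after subtracting free RNA. With the expected share of doublets removed and at resolutions 0.5 and 2, unnamed cells held 12.5% to 23.4% of the 7-day DHH UMIs. Of those in named cells, Sertoli-like cells then held 95.3%, 95.1% and 95.3%, beside 95.9% in the main setting. Without doublet removal this share of named cells was 92.8%, and with the gate 91.3%. At 90 days it was 81.6% in the main setting, 76.99% without doublet removal, 84.3% at resolution 2, 68.2% with the gate and 72.9% after thinning. The cause of the shifts was otherwise not tested. Without the 60-day library, an alternative chosen after seeing the data, 13 of the 21 most alike genes were shared. No paired analysis was possible because each age has 1 library. Classes under 100 cells, such as the 19 myoid-like cells at 7 days and the 72 Leydig-like cells at 60 days, entered no comparison, and low UMI counts widen the intervals.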
